A study of Homo sapiens with 4 samples.

Results

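The genes described here are 9 members of the PARP family and DTX3L, the ubiquitin ligase that binds PARP9. Their members on the array are all 28 probe sets that the platform annotation assigns to exactly 1 gene, that gene being 1 of these 10, among 44988 such probe sets for 18132 genes. The genes were chosen by their family and on measured values: the differences between PC-3 exosomes and PBS in these same arrays were already known, and PARP9 and DTX3L lead the set for their rise. The differences, SE and p-values given for them in that comparison are therefore a description and no independent test. The data were 4 gene expression arrays of LNCAP, a human prostate cancer line that responds to androgen and makes prostate-specific antigen. In 2 arrays the LNCAP cells had received exosomes, small vesicles shed by cells, made by PC-3, another prostate cancer line, whose growth needs no androgen. In the other 2 they had received PBS, a buffer. All 4 arrays share the cell line and a medium with fetal bovine serum, and whether replicates were separate cultures is not stated in the labels. Dose and time of exposure are not used here.

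PARP enzymes move ADP-ribose from NAD+ onto proteins, as single units or as chains, and macrodomains read or remove that mark. PARP1, PARP2 and PARP3 act at broken DNA, while PARP9, PARP10, PARP12 and PARP14 belong to the members that interferon induces in many cell types. PARP9 carries macrodomains that bind ADP-ribose, and with the E3 ligase DTX3L it forms a complex that acts in DNA damage and in antiviral signalling.

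PARP9 and DTX3L lie head to head, and their promoter sequences are shown because both windows hold the same stretch. Those of PARP14 and PARP12 are set beside them for the same motif. RefSeq sequences on GRCh38.p14, from 250 bases before to 50 after an annotated start, were used for 8 of the 10 members. Those of PARP10 and PARP4 were not searched, so whether they hold the motif is not known. One annotated start of PARP9 lies 38 bases from the start of DTX3L on the opposite strand. Their windows share 137 bases, which are exact reverse complements of each other. In lower case below, capitals mark matches to AAANNGAAA, the core of an interferon response element, on either strand.

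DTX3L, chr3:122564088-122564387, plus strand: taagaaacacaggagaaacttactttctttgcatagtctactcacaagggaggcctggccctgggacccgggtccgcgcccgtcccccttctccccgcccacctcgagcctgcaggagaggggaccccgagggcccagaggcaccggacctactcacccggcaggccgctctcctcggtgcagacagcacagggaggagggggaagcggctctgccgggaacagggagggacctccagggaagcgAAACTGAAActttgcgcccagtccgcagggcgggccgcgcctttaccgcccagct
PARP9, chr3:122564251-122564550, minus strand: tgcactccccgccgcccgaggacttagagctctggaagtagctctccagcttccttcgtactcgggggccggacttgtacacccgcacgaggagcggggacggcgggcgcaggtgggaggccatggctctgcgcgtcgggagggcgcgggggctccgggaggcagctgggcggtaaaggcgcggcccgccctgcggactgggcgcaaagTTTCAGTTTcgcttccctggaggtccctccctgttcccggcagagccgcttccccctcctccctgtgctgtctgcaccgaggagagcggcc
PARP14, chr3:122680744-122680849, plus strand: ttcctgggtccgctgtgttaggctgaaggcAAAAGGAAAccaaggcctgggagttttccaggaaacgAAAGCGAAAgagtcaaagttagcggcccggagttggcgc
PARP12, chr7:140062923-140062991, minus strand: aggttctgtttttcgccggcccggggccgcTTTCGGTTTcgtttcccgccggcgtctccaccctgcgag

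The match in the PARP9 window and the match in the DTX3L window are the same 9 bases, at chr3:122564333-122564341. They start 41 bases before the PARP9 start and 5 bases before the DTX3L start. The window of PARP14, a large member with macrodomains, held 2 matches, 65 and 28 bases before its start. PARP12, a member with zinc fingers, had 1 match, 10 bases before its start. The windows of PARP1, PARP2, PARP3 and PARP8 held none, nor did a second PARP9 window. Of 7 other family genes with a window outside chromosome 8, TIPARP alone had a match. So 4 of the 8 members whose windows were used had a match in at least 1 of them. Of all 35116 windows of this length, 10.5% held this motif, and 12.6% of 27305 genes had it in at least 1 window. The STAT dimer motif TTCNNNGAA was in 7.66% of all windows and, among the members, in those of PARP14 and PARP2. The ETS motif CCGGAAGT was in 4.14% of all windows and in none of the members'. The STAT motif of PARP14, 40 bases before the start, overlapped neither of its interferon motifs. A match is a run of letters, not a shown binding site.

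**Figure D1:**
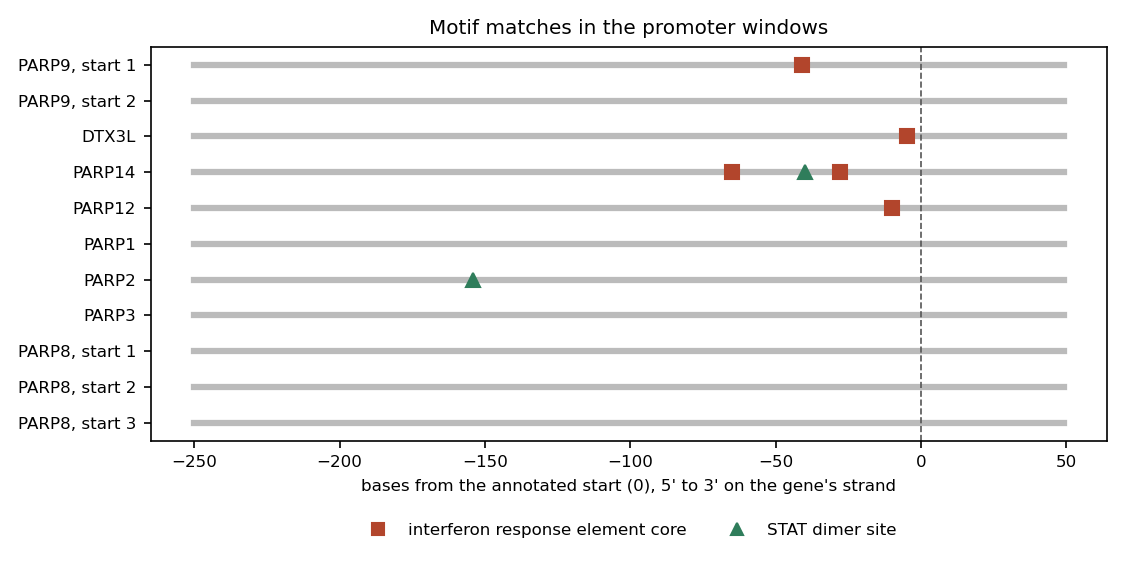
Matches to the interferon response element core (squares) and the STAT dimer site (triangles) in the promoter windows of 8 members, by distance in bases from the annotated start (dashed line), with 1 grey bar per window. The 5 squares lie between 65 and 5 bases before a start, in the windows of PARP9, DTX3L, PARP14 and PARP12.

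PARP9 had a normalized intensity of 529 and 587 on the arrays with PC-3 exosomes, against 379 and 364 on those with PBS. Both exosome arrays were above both PBS arrays, and the gap was wider than the spread within either group. The means were 558 ± 41.2 with PC-3 exosomes and 371 ± 10.3 with PBS (SD, n = 2 each). That is a fold of 1.5 (log2 fold change 0.58, SE 0.069, limma adjusted p = 0.0075 over 18132 genes). Over the 4 possible pairs of an exosome array with a PBS array, the log2 difference of PARP9 ran from 0.48 to 0.69. All fold changes are ratios of the intensity plus 1.

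DTX3L had an intensity of 735 and 778 with PC-3 exosomes, against 543 and 477 with PBS. Again the groups did not overlap, and the PBS arrays were further apart than the exosome arrays. Its means were 756 ± 30.5 with PC-3 exosomes and 510 ± 46.8 with PBS (SD, n = 2 each). The fold was 1.48 (log2 fold change 0.57, SE 0.072, limma adjusted p = 0.0097), and the pairs of arrays ran from 0.43 to 0.70. By size of the log2 fold change PARP9 was number 31 and DTX3L number 34 of 18132 genes, counted from the largest rise.

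These were the only members past an adjusted p under 0.05 in that fit, so 2 of 10 rose and 0 fell. Of all genes tested 0.700% were higher and 0.188% lower at that adjusted p. By the raw p under 0.05 the members counted 3 and 0, the added one being PARP12, while 5.76% of all genes were higher and 5.16% lower by that raw p. Since PARP9 and DTX3L were chosen for this difference, nothing is read from these counts. The calls depend on single arrays. With 1 array left out, PARP9 was past the threshold only without PC-3 exosomes replicate 1, and DTX3L only without that array or without PBS replicate 1. Over the 4 fits with an array left out, PARP9 had a log2 fold change of 0.51 to 0.66 and DTX3L of 0.48 to 0.66. With eBayes without a trend PARP9 had an adjusted p of 0.067 and DTX3L of 0.095. With 2 arrays against 2 an exact two-sided permutation test cannot give a p below 0.333, so each p rests on limma's variance model and measures only the spread between these arrays, which may be technical.

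**Figure D2:**
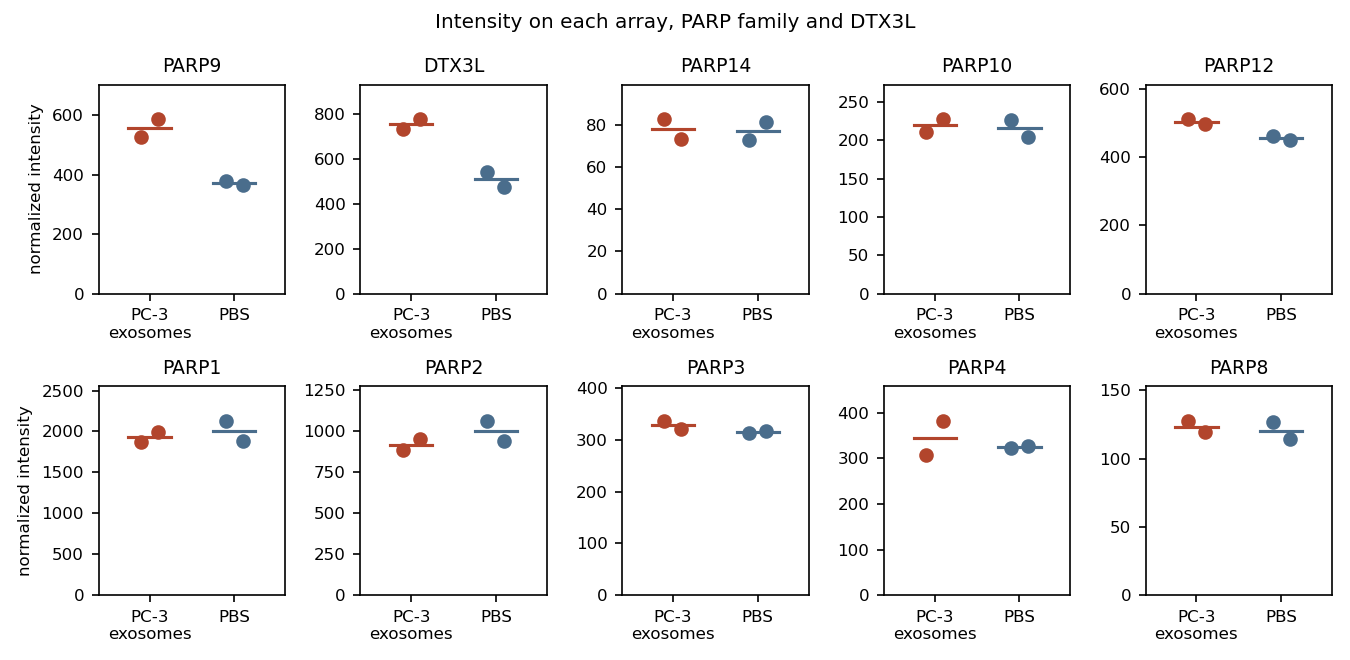
Normalized intensity (linear axis from 0) of the probe set that stands for each member, on the 2 arrays with PC-3 exosomes and the 2 with PBS, with points for arrays and lines for group means. PARP9 and DTX3L show a clear gap, at 529 to 587 against 364 to 379 and at 735 to 778 against 477 to 543, while in the other panels the groups lie close or overlap.

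The other 3 members of the group that interferon induces stood apart from PARP9 and DTX3L in size. PARP12 had an intensity of 510 and 496 with PC-3 exosomes, against 462 and 450 with PBS. The groups did not overlap, yet its log2 fold change was 0.14 (SE 0.059, limma adjusted p = 0.423). PARP14 had 82.5 and 73.1 with PC-3 exosomes, against 72.9 and 81.1 with PBS, so that its arrays were interleaved (log2 fold change 0.01, SE 0.097, adjusted p = 0.987). Its mean log2 value with PBS was 6.28, while the background control probe sets averaged 5.63 to 5.67 per array. On PC-3 exosomes replicate 1 the lowest of these controls was 10.5 and the highest 3694, so they give no limit for a single probe set, and whether PARP14 was detected is not known. PARP10, which adds single ADP-ribose units, had 211 and 227 with PC-3 exosomes, against 227 and 205 with PBS (log2 fold change 0.02, SE 0.081, adjusted p = 0.966). A p that misses the threshold does not show that these genes stayed the same.

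Among the members that act at DNA breaks, PARP1 had an intensity of 1868 and 1990 with PC-3 exosomes, against 2129 and 1886 with PBS. The arrays overlapped, and the log2 fold change was -0.06 (SE 0.063, limma adjusted p = 0.825). PARP2, the partner closest to PARP1 in function, had 886 and 949 with PC-3 exosomes, against 1062 and 936 with PBS (log2 fold change -0.12, SE 0.069, adjusted p = 0.583). Only PBS replicate 1 stood above both exosome arrays. PARP3 had 337 and 320 with PC-3 exosomes, against 314 and 317 with PBS, a small gap with no overlap (log2 fold change 0.06, SE 0.065, adjusted p = 0.824).

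PARP4, which is part of the ribonucleoprotein particle called the vault, had 309 and 383 with PC-3 exosomes, against 322 and 328 with PBS. The exosome arrays lay on either side of the PBS arrays (log2 fold change 0.08, SE 0.096, limma adjusted p = 0.844). PARP8, which adds single ADP-ribose units, had 128 and 119 with PC-3 exosomes, against 127 and 114 with PBS (log2 fold change 0.04, SE 0.087, adjusted p = 0.939). In all, the exosome arrays lay above the PBS arrays without overlap in 4 of 10 members, PARP9, DTX3L, PARP12 and PARP3, and below them in 0. Of all genes tested, 17.8% lay above and 21.9% below in that way. The median log2 fold change was 0.05 over the 10 members and -0.01 over all genes tested.

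The probe sets of 1 gene did not move alike. Of the 28 probe sets 3 passed an adjusted p under 0.05 when all 44988 were tested, all 3 higher after PC-3 exosomes, against 0.238% of all probe sets called higher. PARP9 probe set 11754379_at had an intensity of 333 and 326 with PC-3 exosomes, against 314 and 309 with PBS, a log2 fold change of 0.08 (SE 0.065). Within an array, the log2 value of the PARP9 probe set 11744434_a_at exceeded that of 11754379_at by 0.67 and 0.84 with PC-3 exosomes, against 0.27 and 0.23 with PBS. The third PARP9 probe set, 11756306_a_at, was dim at 28.9 and 31.3 with PC-3 exosomes, against 27.3 and 27.9 with PBS. In all 3 the exosome arrays were above the PBS arrays.

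DTX3L had 2 probe sets with like changes. The second, 11717562_x_at, had an intensity of 245 and 229 with PC-3 exosomes, against 164 and 162 with PBS (log2 fold change 0.54, SE 0.076, limma adjusted p = 0.0496 over probe sets). That call was lost with a pseudocount of 16 (adjusted p = 0.0554) and with robust eBayes (adjusted p = 0.0507). The log2 distance between them, 11717561_s_at minus 11717562_x_at, was 1.58 and 1.76 with PC-3 exosomes, against 1.72 and 1.55 with PBS, so it overlapped between groups. Their suffixes mark probe sets that may match transcripts of more than 1 gene. The third, 11717563_a_at, had 24.6 and 28.0 with PC-3 exosomes, against 24.7 and 26.9 with PBS, with no gap. With that dim probe set alone DTX3L had a log2 fold change of 0.02. As the mean of its 3 probe sets DTX3L had 0.38 (limma adjusted p = 0.027), and PARP9 in the same way had 0.26 (limma adjusted p = 0.127).

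PARP1 had 4 probe sets, all below 0, at log2 fold changes from -0.29 to -0.03. The one furthest from 0, 11726249_a_at, had an intensity of 1295 and 1237 with PC-3 exosomes, against 1606 and 1496 with PBS. Its groups did not overlap, and it had a log2 fold change of -0.29 (SE 0.056, limma adjusted p = 0.139 over probe sets). It was the only 1 of 28 member probe sets with both exosome arrays below both PBS arrays, as were 20.5% of all probe sets. In 9 of 28 both exosome arrays were above, as in 17.2% of all probe sets. The 3 probe sets of PARP2 were also below 0, from -0.20 to -0.12, each with overlapping arrays. The 6 of PARP14 ran from -0.12 to 0.17, the 3 of PARP10 from -0.03 to 0.05, the 2 of PARP3 from 0.06 to 0.09 and the 2 of PARP4 from -0.15 to 0.08. PARP12 and PARP8 had 1 each.

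**Figure D3:**
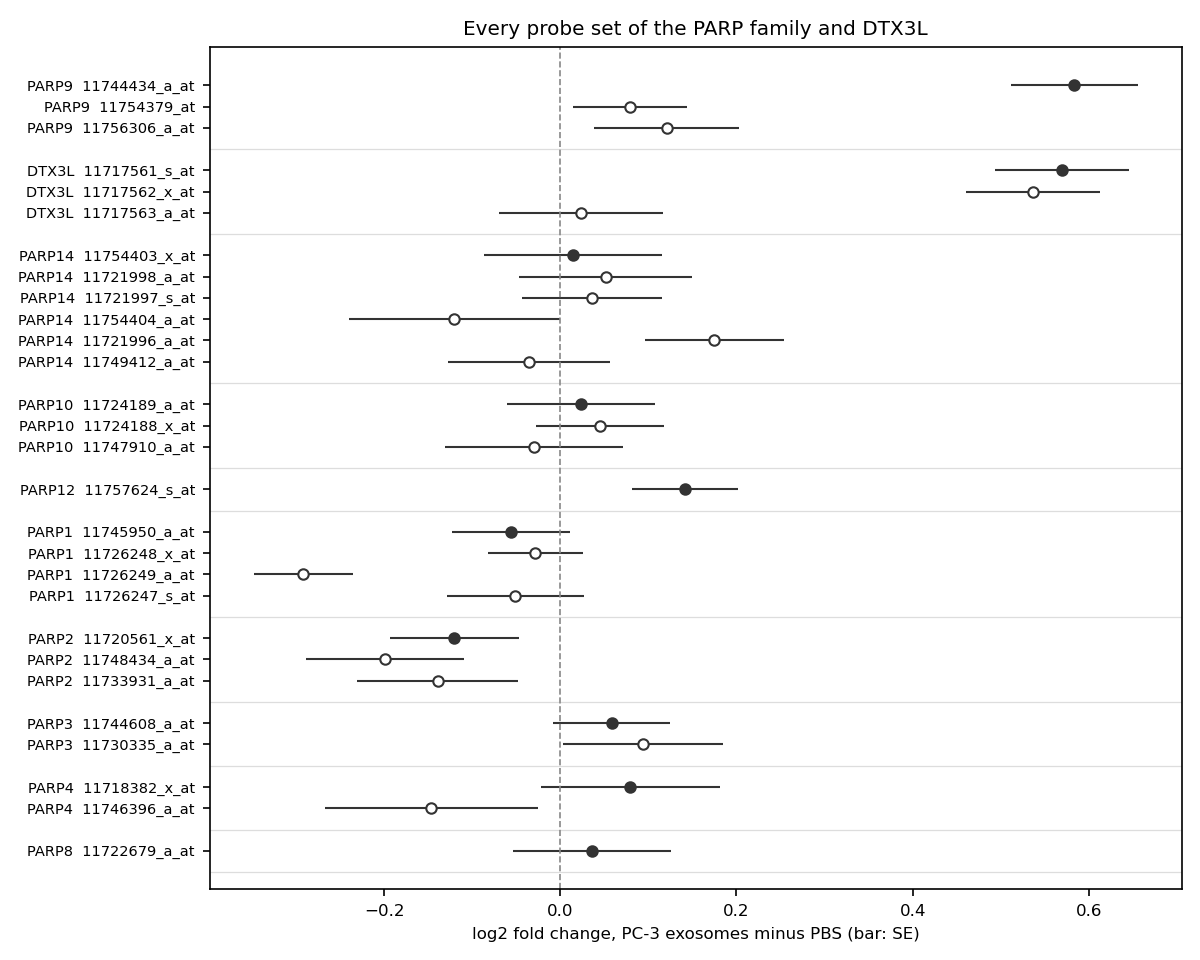
Log2 fold change, PC-3 exosomes minus PBS, of each of the 28 probe sets, with its SE as a bar; filled points stand for the gene. One probe set of PARP9 (0.58) and 2 of DTX3L (0.57 and 0.54) lie far to the right, and 1 of PARP1 (-0.29) furthest to the left.

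The scale matters for the members near 0. The poly-A spike-ins, RNAs put into a sample as controls, averaged 6.94 and 7.02 on the log2 scale with PC-3 exosomes, against 6.90 and 6.77 with PBS. The difference was 0.14, and centring each array on them lowers every log2 fold change by that amount. PARP9 then had 0.44 (SE 0.095, limma adjusted p = 8.1e-04) and DTX3L 0.43 (SE 0.089, adjusted p = 4.6e-04). These p are lower than on the deposited scale, although the changes are smaller and the SE larger. On the spike-in scale limma's p followed a normal distribution, as if the variances were known. They therefore cannot be compared with those on the deposited scale. PARP14, PARP10, PARP3, PARP4 and PARP8 turned below 0, at -0.13 to -0.06, and PARP12 came to 0.0018. On that scale 1.66% of all probe sets were lower, and so were 2 of the 28 member probe sets. They were PARP1 11726249_a_at at -0.43 (limma adjusted p = 2.2e-04) and PARP2 11748434_a_at at -0.34 (adjusted p = 0.012). Both calls rest on the same normal distribution.

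PARP9, DTX3L, PARP15 and PARP14 follow each other on the chromosome in the RefSeq order of GRCh38.p14, and the annotated spans of PARP9 and DTX3L overlap at their starts. PARP15, a macrodomain member outside the 10 genes, was dim and had a log2 fold change of 0.04 (SE 0.078, limma adjusted p = 0.912), with overlapping arrays. KPNA1, an importin and the neighbour on the other side of PARP9, had 0.04 (SE 0.054, adjusted p = 0.879). Among the 5 protein-coding genes on either side of PARP9, only DTX3L and CSTA, the cysteine protease inhibitor cystatin A, were past the threshold. CSTA had 61.9 and 62.8 with PC-3 exosomes, against 41.3 and 33.3 with PBS (log2 fold change 0.74, SE 0.11, adjusted p = 0.019). It lies 5 genes away, and MIX23, FAM162A, WDR5B and KPNA1 between them had -0.07 to 0.04. Both PBS values of CSTA are under the mean of the background controls. With 1 array left out CSTA ran from 0.58 to 0.89, and its call held without PBS replicate 1 alone (adjusted p = 0.037). HSPBAP1 and SLC49A4, beyond PARP14, had 0.09 and 0.01.

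**Figure D4:**
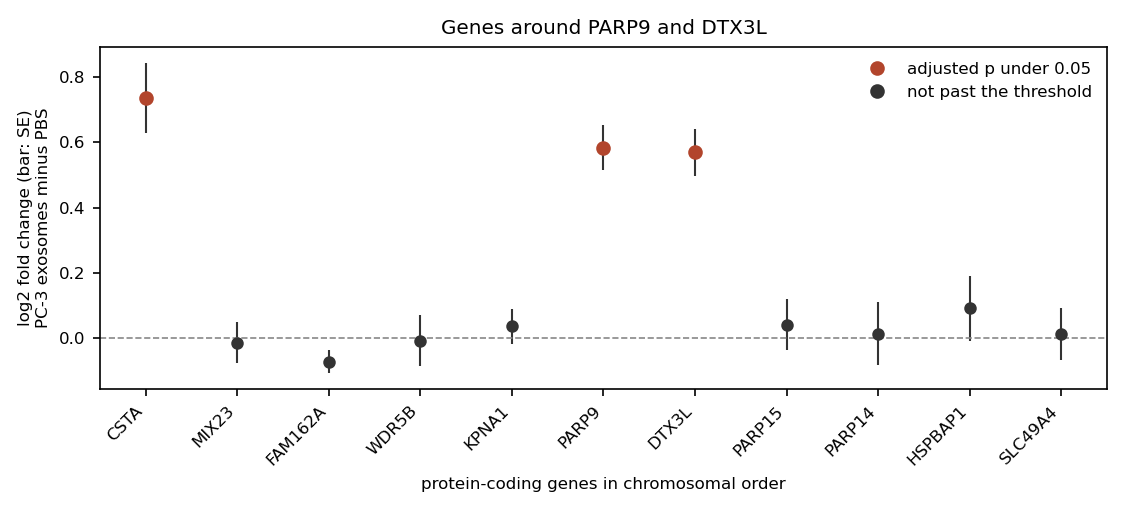
Log2 fold change, PC-3 exosomes minus PBS, with SE as bars, of PARP9 and the 5 protein-coding genes on either side in chromosomal order. DTX3L and PARP9 (0.57 and 0.58) and CSTA (0.74) are red, and the 8 others lie between -0.07 and 0.09.

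The profile of PARP9 over the 4 arrays was most like those of NEBL, TSC22D3, PGC, DDIT4 and ASS1. Likeness was the Euclidean distance between the 4 log2 values, each gene centred on its mean, among 8980 other genes at or above the median level. The distance was 0.037 for NEBL, a protein of the nebulin family, and 0.052 for TSC22D3, a glucocorticoid-induced gene. The log2 fold changes of these 5 genes lay between 0.53 and 0.57. Their closeness to that of PARP9 follows from the distance itself, which contains the difference between groups. DTX3L came at place 11, with a distance of 0.11. Nearest to DTX3L were ASS1, the argininosuccinate synthase (distance 0.045), PGC, ASNS, ST6GALNAC1 and SELENOM.

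The remaining genes of the family and its pathways were taken as lists. In the list of 8 other PARP family genes 0 passed the limma threshold. At a raw p under 0.05, 1 was above and 1 below, against 5.76% and 5.16% of all genes tested. The one above, PARP11, had 60.2 and 62.0 with PC-3 exosomes, against 51.5 and 51.3 with PBS (log2 fold change 0.24, SE 0.082, adjusted p = 0.297), while its other 3 probe sets had -0.07 to 0.02. ZC3HAV1, the zinc-finger antiviral protein, had 1424 and 1408 with PC-3 exosomes, against 1549 and 1527 with PBS (log2 fold change -0.12, SE 0.045, adjusted p = 0.365). The other probe sets of ZC3HAV1 had -0.07 to 0.04. The median of this list was -0.03. In the list of deltex genes and DTX3L partners 0 of 8 measured passed (0 at a raw p under 0.05), with a median of -0.01. DTX3 had -0.17 (adjusted p = 0.50) and RNF114 0.09 (adjusted p = 0.524).

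Among genes that remove or read ADP-ribose 0 of 12 measured passed, with a median of 0.0024. At a raw p under 0.05, 1 was above and 1 below, against 5.76% and 5.16% of all genes tested. HPF1, the factor that directs PARP1 and PARP2 to serines, had 1225 and 1241 with PC-3 exosomes, against 1428 and 1352 with PBS (log2 fold change -0.17, SE 0.050, limma adjusted p = 0.216). NUDT16, a hydrolase that can trim ADP-ribose, had 0.14 (SE 0.058, adjusted p = 0.438). Of 11 measured genes of strand break repair 0 passed, also at a raw p under 0.05, with a median of -0.03. XRCC1, the scaffold recruited by PARP1, had -0.10 (adjusted p = 0.638) and TDP1 -0.09 (adjusted p = 0.710).

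In the list of NAD supply and use 1 of 18 rose and 0 fell (1 and 1 at a raw p under 0.05), with a median of 0.0076. Of all genes tested 0.700% were higher and 0.188% lower by the adjusted p, and 5.76% and 5.16% by the raw p. NAMPT, the rate-limiting enzyme of NAD salvage, had 1076 and 1082 with PC-3 exosomes, against 847 and 896 with PBS (log2 fold change 0.31, SE 0.053, limma adjusted p = 0.035). The NAMPT call was lost when any 1 array was left out, at 0.27 to 0.35, on the spike-in scale, at 0.17, and as the mean of its probe sets, at 0.17 (limma adjusted p = 0.372). In the list of interferon signalling 1 of 13 measured rose and 0 fell (3 and 0 at a raw p under 0.05, by which 5.76% of all genes were higher), with a median of 0.08. It was IRF1, an interferon-induced transcription factor, at 147 and 145 with PC-3 exosomes, against 76.0 and 77.0 with PBS (log2 fold change 0.92, SE 0.079, limma adjusted p = 0.0012). As the mean of its probe sets IRF1 had 0.22 (adjusted p = 0.273). IRF9, which binds the interferon response element with STAT proteins, had 427 and 457 with PC-3 exosomes, against 354 and 333 with PBS, at an adjusted p of 0.0501 (log2 fold change 0.36, SE 0.068). IRF9 was singled out after its values were seen.

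In the list of cytosolic RNA and DNA sensing 1 of 12 rose and 0 fell (3 and 0 at a raw p under 0.05, against the same 5.76% of all genes), with a median of 0.06. IFIH1, a sensor of viral RNA, had 115 and 113 with PC-3 exosomes, against 81.6 and 84.7 with PBS (log2 fold change 0.45, SE 0.080, limma adjusted p = 0.043). The IFIH1 call was also lost when any 1 array was left out, at 0.42 to 0.48, and on the spike-in scale, at 0.31, and it had 0.12 as the mean of its probe sets.

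**Figure D5:**
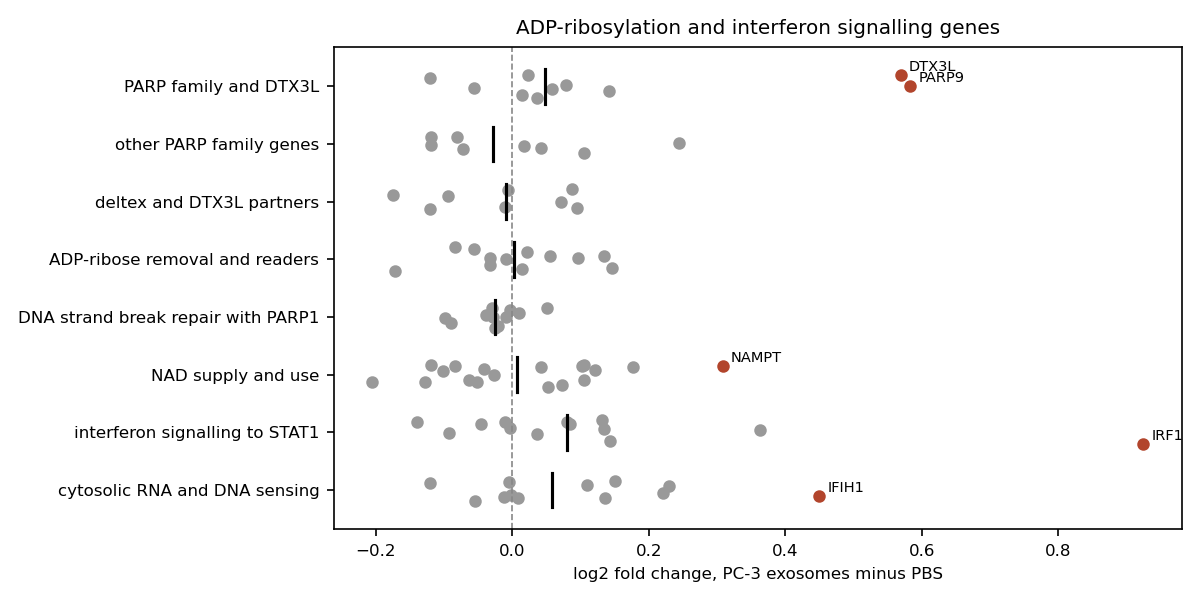
Log2 fold change, PC-3 exosomes minus PBS, of each measured gene of 8 lists; red points are past an adjusted p under 0.05, black lines are list medians, and the vertical scatter has no meaning. PARP9 and DTX3L stand alone in the PARP family, and IRF1, IFIH1 and NAMPT are the only red points in the other lists.

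Median intensities were 110.8 to 111.3 on the PC-3 exosome arrays and 112.0 to 112.4 on the PBS arrays, and precision is limited by how few arrays there were. The LNCAP markers measured, KLK3, KLK2, TMPRSS2, HOXB13, KRT8 and KRT18, averaged 1852 to 14186 with PBS. The labels' extraction text speaks of brain tissue, and the 8 brain markers measured averaged 22.8 to 764 with PBS, the highest being MBP. Of all genes tested 5.76% were higher and 5.16% lower at a raw p under 0.05. Of 8 genes listed as marks of PC-3, 0 passed the limma threshold, with 0 above and 1 below at that raw p. Their summed intensity was 1009 and 1018 with PC-3 exosomes, against 1081 and 1059 with PBS, of which VIM made up 506 and 543 on the PC-3 exosome arrays, against 574 and 528 on the PBS arrays. The part of PC-3 RNA in the results was not tested. An array of a whole culture cannot tell more RNA per cell from more cells that make it.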

How the data were processed

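Expression in LNCAP cells was measured on 4 Affymetrix arrays, 2 per group (PC-3 exosomes, PBS). The authors deposited 1 normalized intensity per probe set on a linear scale, which reached 39563. MAS5 and RMA are named, per the submitters' processing notes, with no role or version. Background correction and genome build were not given in the sources used here. Groups came from sample titles, with PBS from the treatment text.

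Of 49395 probe sets, 102 were controls, 1832 named several genes (0 of them a member) and 2473 none, and these were left out. The probe set with the highest mean log2 value stood for a gene. Log2 of the value plus 1 was fitted with limma 3.58.1 in R 4.3.3 (lmFit, eBayes with trend), two-sided, with Benjamini-Hochberg adjustment over 18132 genes or, separately, 44988 probe sets. The fit over genes on the deposited scale had 2 residual and 6.99 prior degrees of freedom, and its median SE was 0.078. The fit was also run on values simulated from its own variance model, which cannot show how it performs on real arrays.

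Members, lists, motifs and alternatives were chosen with earlier results of these data known. No promoter window on chromosome 8, where PARP10 lies, was used for a member or another family gene. Named were all members, of each list up to 4 members past the threshold or else the 2 with the smallest p, 5 neighbours on either side of PARP9, and the 5 genes nearest to PARP9 and to DTX3L. Alternatives changed the normalization, pseudocount, filter, probe set summary, variance model and block, or left out each array. Figures were drawn with matplotlib 3.10.9.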

Additional observations from a re-analysis of the deposited data

How the results depend on the processing

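Of 15 alternatives, PARP9 stayed past the threshold in 9 and DTX3L in 10, and both kept their direction in each. The members higher were 1 with the mean of a gene's probe sets, 1 without _x_at and _s_at probe sets, 0 with eBayes without a trend, 0 with the replicate block, and 0 to 2 with an array left out, in place of 2. The members lower were 0 in each. Member probe sets higher were 2 with a pseudocount of 16, 2 with robust eBayes, 0 with eBayes without a trend, 0 with the block and 0 with any array left out, in place of 3, and 2 were lower against the poly-A spike-ins. Over all genes the counts of 127 higher and 34 lower became 60 and 326 against the spike-ins, 18 and 3 without a trend, 2 and 0 with the block, and 63 and 9 without _x_at and _s_at probe sets. They were 213 and 84 among genes at or above the median level, 28 to 40 and 4 to 7 with an array left out, and those lower were 68 with quantile normalization and 57 among genes at or above the 30th percentile. The labels do not explain the replicate numbers, so they were not taken as pairs. The deviations of same-numbered arrays from their group means correlated at -0.04 across genes, which cannot show whether such arrays were handled together. With the replicate block PARP9 had a limma adjusted p of 0.166 and DTX3L of 0.191. The cause of these shifts was not tested, beyond the fewer genes, arrays or degrees of freedom that some settings leave. Against the spike-ins limma's p followed a normal distribution. Calls and counts there, those of PARP9 and DTX3L included, are therefore not comparable with the deposited scale. Against the spike-ins PARP14 had -0.13, PARP10 -0.12, PARP3 -0.081, PARP4 -0.060 and PARP8 -0.10. PARP4 had -0.034 as the mean of its probe sets and -0.15 without _x_at and _s_at probe sets. With an array left out the log2 fold change changed sign for PARP14 (-0.072 to 0.10), PARP8 (-0.037 to 0.11), PARP10 (-0.051 to 0.098), PARP4 (-0.075 to 0.23) and PARP1 (-0.14 to 0.031). The lone array of a group is then assumed to vary like the others. Dim probe sets such as those of PARP14 limit what a difference near 0 can show.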
